A study of Homo sapiens with 4 samples.

Results

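The genes described here are the human centrosomal CEP genes and the NEK kinase genes, with their transcripts counted by RNA sequencing of SK-N-BE(2) cells, an established neuroblastoma line with amplified MYCN. Members were chosen by symbol: a protein-coding gene whose symbol is CEP or NEK followed by a number, with an optional letter or paralogue suffix such as CEP57L1. This gave 49 genes of the 64252 gene IDs in the count table, 38 CEP and 11 NEK, on 19 chromosomes. The family itself was selected on the same contrast as the one described below, so the members' fold changes and counts are a description and support nothing by themselves. C3orf14, whose RefSeq symbol is CEP15, was named by its older symbol in the gene name table and is not a member.

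The knockdown cells, called shTTC8, had received a short hairpin RNA against TTC8, and the control cells, called shScb, a scramble hairpin. Each group held 2 libraries of the same line, with no other treatment or time point given. How many hairpins were used, and their sequences, is not known from the sources used here; an effect of lowered TTC8 and an off-target effect of a hairpin cannot be told apart. Nothing in the labels says that the replicates were separate cultures, so errors and p-values measure only how far these samples lie apart, which may be technical.

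The centrosome is a pair of centrioles inside a cloud of pericentriolar matrix that nucleates microtubules. In a quiescent cell the older centriole uses its distal appendages to dock at the membrane, where it becomes the base of the primary cilium. CEP proteins build the appendages, the centriole wall, the matrix and the linker that holds the centrioles together. NEK kinases include a mitotic branch, in which NEK9 activates NEK6 and NEK7 and NEK2 dissolves the linker, and a branch tied to cilia. TTC8 encodes a subunit of the BBSome, which moves membrane proteins into and out of cilia.

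A few promoters are printed here for the genes that the results return to: NEK6, the gene with the largest fold change; CEP44, the most abundant; CEP290, the transition zone gene; and CEP55 and NEK2, a pair of genes of dividing cells, of which CEP55 passed the test and NEK2 did not. Each runs 5′ to 3′ on the gene's own strand, from 250 bases before to 50 bases after a RefSeq start (GRCh38.p14). Capitals mark letters that match, on either strand, the CHR element TTTGAA and the CCAAT box, both common at genes of the late cell cycle, the E2F site GGCGGGAA, or GTTGCC, a half-site of the RFX factors that act on cilium genes. The windows are chr9:124257356-124257655 (plus strand) for NEK6, which is the first of 5 listed starts, chr4:174283661-174283960 (plus) for CEP44, chr12:88142039-88142338 (minus) for CEP290, chr10:93496362-93496661 (plus) for CEP55 and chr1:211675572-211675871 (minus) for NEK2.
NEK6: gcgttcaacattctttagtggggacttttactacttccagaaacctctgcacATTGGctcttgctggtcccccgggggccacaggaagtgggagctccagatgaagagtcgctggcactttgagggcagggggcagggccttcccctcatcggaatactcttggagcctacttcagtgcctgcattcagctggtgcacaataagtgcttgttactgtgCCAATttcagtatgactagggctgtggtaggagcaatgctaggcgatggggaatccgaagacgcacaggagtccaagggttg
CEP44: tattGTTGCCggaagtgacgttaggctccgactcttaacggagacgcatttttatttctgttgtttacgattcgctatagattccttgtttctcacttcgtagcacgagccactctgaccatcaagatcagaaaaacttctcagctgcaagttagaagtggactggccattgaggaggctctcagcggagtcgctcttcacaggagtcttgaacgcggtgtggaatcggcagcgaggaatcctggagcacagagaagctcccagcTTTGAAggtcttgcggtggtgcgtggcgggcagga
CEP290: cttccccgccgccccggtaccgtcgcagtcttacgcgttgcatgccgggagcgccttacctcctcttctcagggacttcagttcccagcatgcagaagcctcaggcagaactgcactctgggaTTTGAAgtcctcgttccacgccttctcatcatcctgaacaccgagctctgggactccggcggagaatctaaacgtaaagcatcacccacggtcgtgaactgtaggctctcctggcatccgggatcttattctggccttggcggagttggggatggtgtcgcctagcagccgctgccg
CEP55: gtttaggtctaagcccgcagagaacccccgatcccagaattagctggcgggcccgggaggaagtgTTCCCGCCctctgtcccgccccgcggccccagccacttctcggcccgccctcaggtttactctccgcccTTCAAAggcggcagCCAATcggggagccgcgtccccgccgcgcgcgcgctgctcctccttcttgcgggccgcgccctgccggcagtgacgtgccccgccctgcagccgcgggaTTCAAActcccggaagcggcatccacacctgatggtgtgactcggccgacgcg
NEK2: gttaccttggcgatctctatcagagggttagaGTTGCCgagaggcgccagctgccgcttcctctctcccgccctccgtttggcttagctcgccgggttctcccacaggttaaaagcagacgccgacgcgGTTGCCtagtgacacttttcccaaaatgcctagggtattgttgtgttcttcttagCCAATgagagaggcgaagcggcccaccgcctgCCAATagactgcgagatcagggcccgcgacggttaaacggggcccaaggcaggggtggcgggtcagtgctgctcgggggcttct

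In these windows NEK6 held CCAAT on both strands, while the windows of its other 4 starts held none of the 4 motifs; CEP44 held a CHR element and an RFX half-site, and CEP290 a CHR element. CEP55 held an E2F site, CCAAT and TTCAAA, which is the CHR element read on the opposite strand. NEK2 held CCAAT and GTTGCC but no CHR element. RefSeq start sites were at hand for 43 of the 49 members, with 59 starts in all. NEK7, CEP78, CEP170B, CEP250 and CEP295NL were among those with no entry.

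Across those 59 starts the CHR letters stood in 25.4% of windows, against 15.2% of all 35116 RefSeq windows of that length. CCAAT stood in 42.4% of member windows and 34.6% of all windows. The RFX half-site stood in 28.8% of member windows and 12.2% of all windows, and the E2F letters in 11.9% and 3.16%. Different motifs overlapped each other in 0 member windows. The median GC content of the windows was 62.7% for members and 58.7% for all. Of the 16 lower, 3 higher and 24 other members with a window, by the test below, the CHR letters were found in 7, 0 and 7. The RFX half-site was found in 3, 1 and 11 of them, CCAAT in 10, 1 and 11, and the E2F letters in 4, 1 and 2. A match is a description of these letters and not a binding site.

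TTC8 itself, the target of the hairpin, had 29.1 and 30.6 CPM (normalised counts on TMM-scaled library sizes) in shTTC8 libraries 1 and 2, against 196 and 191 CPM in shScb libraries 1 and 2. The shTTC8 libraries thus kept 0.154 of the shScb level (log2 fold change -2.70, SE 0.07, edgeR adjusted p = 5.38e-12). Total counts were 38284663 and 40863047 in shTTC8 and 51168727 and 55331449 in shScb. Mitochondrial transcripts took 7.61% and 7.70% of counts in shTTC8 and 8.94% and 8.27% in shScb. Summed adrenergic neuroblastoma markers, 9 of 9 of them measured, stood at 4490 and 4550 CPM in shTTC8 and 4200 and 4480 CPM in shScb, while 6 of them were lower and 2 higher. Of fibroblast markers 6 of 6 were lower, with sums of 236 and 226 CPM in shTTC8 and 494 and 474 CPM in shScb. Schwann cell and glia markers summed to 15.6 and 14.1 CPM in shTTC8 against 36.7 and 38.6 CPM in shScb, with SOX10 at 0 and 1 of 4 tested markers lower. Blood cell markers summed to 4.74 and 4.06 CPM in shTTC8 against 16.7 and 15.9 CPM in shScb, with CD3E and HBB at 0 and 1 of 2 tested markers lower. Endothelial sums were 0.927 and 0.894 CPM in shTTC8 and 2.31 and 1.6 CPM in shScb, with PECAM1 at 0 and 1 of 2 lower, and epithelial sums 6.80 and 7.59 CPM in shTTC8 and 8.41 and 8.26 CPM in shScb, with CDH1 at 0 and 1 of 4 lower. Multiciliated cell markers summed to 4.22 and 4.32 CPM in shTTC8 and 3.07 and 4.21 CPM in shScb, with CCNO at 0 and 0 of 4 tested markers past the test in either direction. The part of these markers in the results below was not tested. In bulk RNA, fewer cells of a type and less RNA per cell cannot be told apart.

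More CEP and NEK genes were lower than higher in shTTC8. All 49 members passed the low-count filter, and 18 were lower, 4 were higher and 27 did not pass the test (edgeR, adjusted p under 0.05 over all 19610 tested genes). In counts of genes, lower or fell and higher or rose mean that this test was passed. A gene that did not pass is not shown to be unchanged. The background is wide: 16.7% of all tested genes were lower and 15.2% were higher, and of tested protein-coding genes 20.6% were lower and 18.6% were higher. Since the family was picked on this contrast, nothing is read from the members' share. The median log2 fold change was -0.22 over the members and 0.004 over all tested genes, and 34 members lay below 0 and 15 above. Only NEK6 and NEK7 differed by more than 2-fold.

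The 38 CEP genes had a median log2 fold change of -0.12, with 14 lower and 3 higher. The 11 NEK genes had a median of -0.35, with 4 lower and 1 higher. Beside these counts and those of the role groups below, 20.6% of tested protein-coding genes were lower and 18.6% higher. Nothing is read from the groups' shares.

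**Figure D1:**
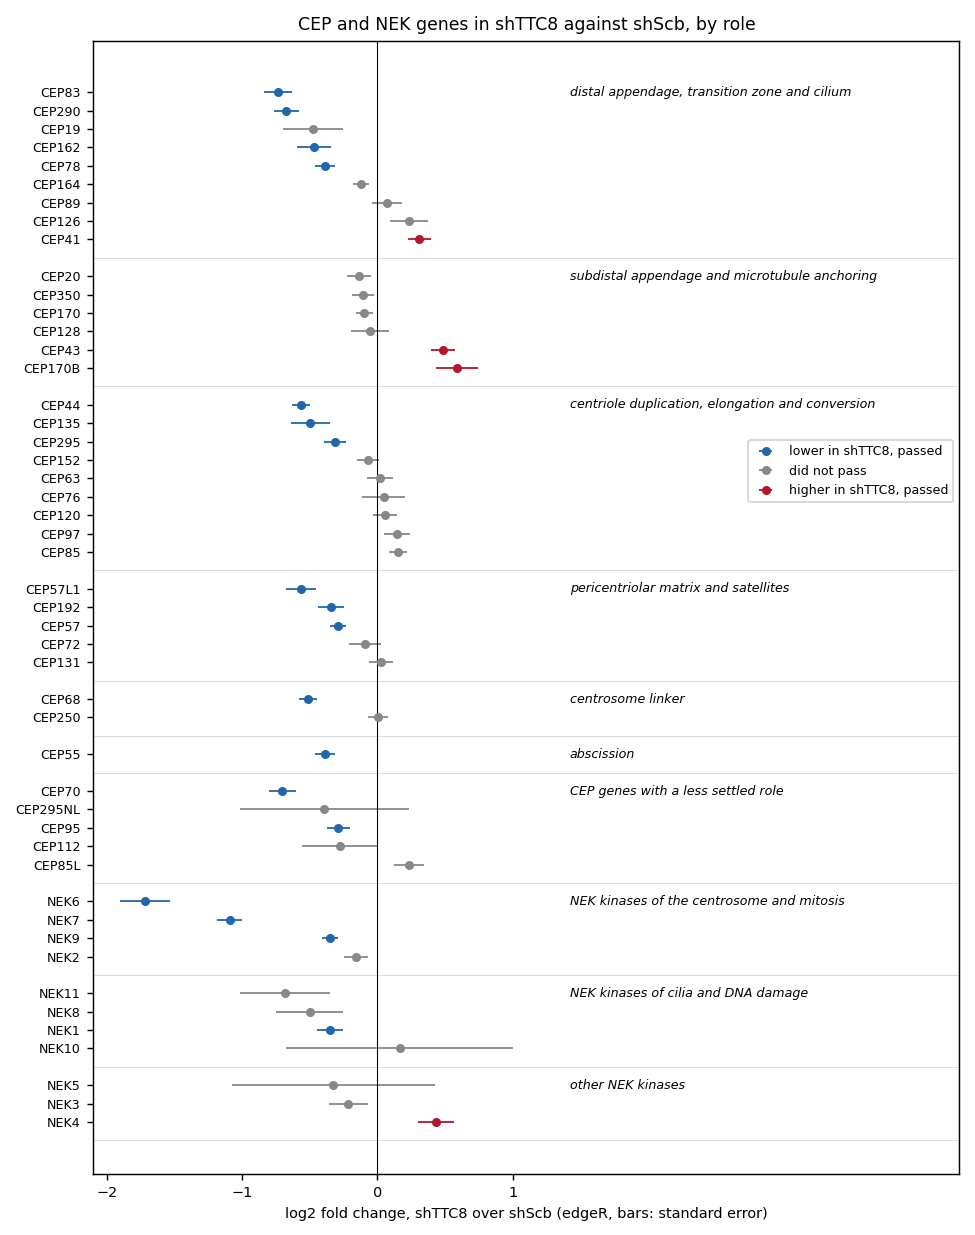
Log2 fold change of the CEP and NEK genes reported here, shTTC8 over shScb, with the standard error (horizontal bars), grouped by role; blue points passed the test and were lower, red points passed and were higher, and grey points did not pass. NEK6 lies farthest left at -1.72, and the 4 red points are CEP41, CEP43, CEP170B and NEK4.

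The mitotic NEK kinases held the largest fold changes among the members. NEK6, which is phosphorylated by NEK9 and acts on the spindle motor KIF11 in mitosis, stood at 2.01 and 2.15 CPM in shTTC8 libraries 1 and 2, against 7.06 and 6.64 CPM in shScb libraries 1 and 2. The gene (ENSG00000119408) lies at chr9:124257606-124353307 on the plus strand (GRCh38). The groups did not overlap, and each shTTC8 library rested on 78 or 89 reads, against 357 and 361 in shScb. NEK6 fell by 1.72 on the log2 scale (SE 0.19), which left 0.304 of the shScb level. NEK7, its close paralogue, which also takes part in the NLRP3 inflammasome, stood at 19.1 CPM in both shTTC8 libraries, against 43.7 and 37.8 CPM in shScb. NEK7 (ENSG00000151414, chr1:198156963-198322420, plus strand) fell by 1.09 (SE 0.09), and again every shTTC8 library was below every shScb library.

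NEK9, the kinase upstream of both, stood at 116 and 108 CPM in shTTC8, against 143 and 142 CPM in shScb. It fell by 0.35 on the log2 scale (SE 0.06), a smaller fold change than that of either target. NEK2, which phosphorylates linker proteins so that centrosomes part before mitosis, had 24.9 and 26 CPM in shTTC8 and 28.8 and 28.0 CPM in shScb. Its libraries did not overlap between groups, but the log2 fold change of -0.16 (SE 0.09) did not pass the test. Of these 4 genes 3 were lower, and a difference between their fold changes was not tested.

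The kinases tied to cilia and DNA damage included 1 lower gene of 4. NEK1, which is needed for cilium formation and DNA repair, had 31.9 and 28.7 CPM in shTTC8, against 41.7 and 35.3 CPM in shScb. Its log2 fold change was -0.35 (SE 0.10), and it did not pass without shScb replicate 1 (-0.23) or without shTTC8 replicate 2 (-0.27). NEK8, a kinase of the inversin compartment of the cilium, had 2.45 and 1.72 CPM in shTTC8, against 2.91 and 2.98 CPM in shScb. The fold change of NEK8, -0.50 with an SE of 0.25, did not pass. NEK11, a kinase of the DNA damage checkpoint, had 0.721 and 0.846 CPM in shTTC8, against 1.29 and 1.23 CPM in shScb. Both its shTTC8 libraries were below both shScb libraries, but at a log2 fold change of -0.68 the SE was 0.33 and it did not pass. NEK8 shares exonic positions with TLCD1 and NEK11 with ASTE1, both more heavily counted than the kinase. NEK10, another kinase of the DNA damage response, was close to absent, with 6 and 11 reads in shTTC8 and 2 and 18 reads in shScb, and the groups overlapped.

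Among the other NEK genes, NEK4, linked to cilium stability and to DNA damage, had 11.4 and 12.3 CPM in shTTC8, against 9.56 and 7.97 CPM in shScb. NEK4 was higher by 0.43 (SE 0.13), the only NEK gene to pass the test as higher. That value is uncertain: 42.2% of NEK4's exonic positions are shared with SPCS1, which lies on the opposite strand and had 369% of the counts of NEK4, with a log2 fold change of 0.01. NEK4 also failed the test without shScb replicate 2 (0.31), without shTTC8 replicate 2 (0.38), with DESeq2 (0.42) and with no low-count filter (0.41). NEK3, a kinase linked to prolactin signalling, had 6.85 and 6.76 CPM in shTTC8 and 8.05 and 7.75 CPM in shScb, a log2 fold change of -0.22 (SE 0.14) that did not pass. NEK5, the least studied of the 3, had 4 and 14 reads in shTTC8 and 22 and 7 reads in shScb, with overlapping groups.

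**Figure D2:**
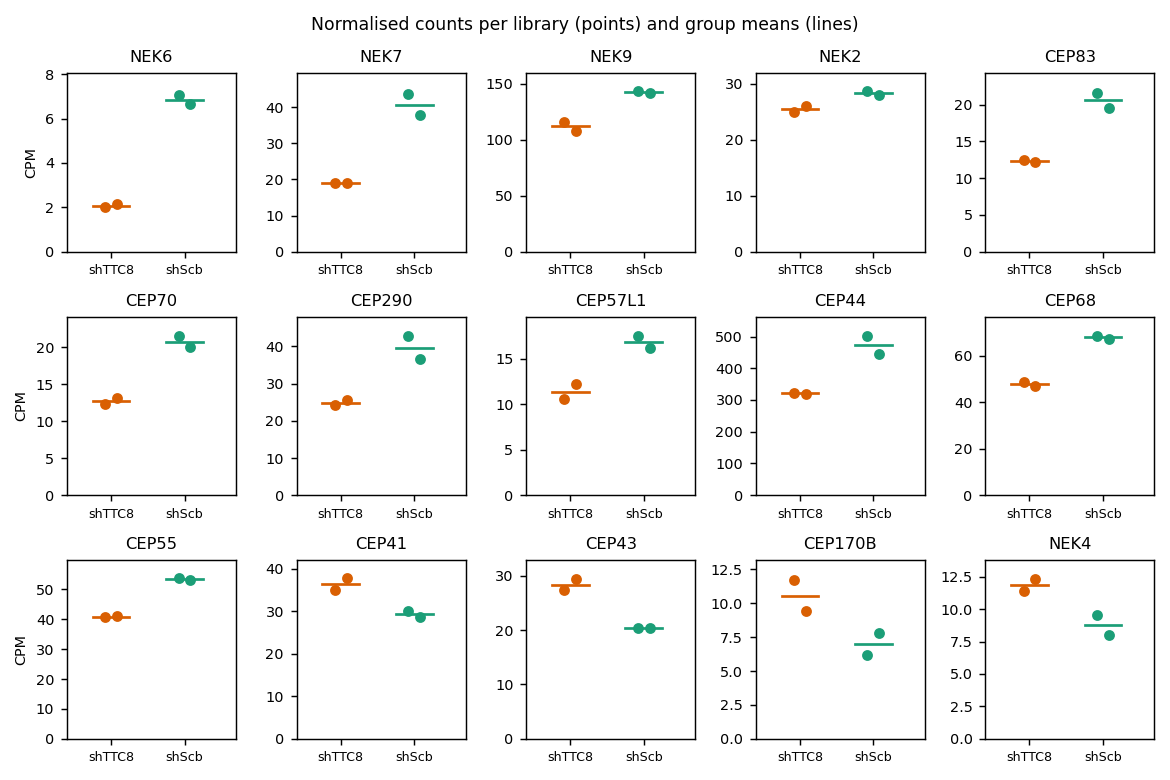
CPM of 15 of the CEP and NEK genes in each library (points) and the group mean (lines), with the shTTC8 libraries on the left of each panel and shScb on the right; every axis starts at 0. NEK6 stood at 2.01 and 2.15 CPM in shTTC8, against 7.06 and 6.64 CPM in shScb, while NEK2 differed little, at 24.9 and 26 CPM in shTTC8 and 28.8 and 28.0 CPM in shScb.

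Of the 10 CEP genes of the distal appendages, the transition zone and the cilium, 4 fell and 1 rose, with a median log2 fold change of -0.26. CEP83, an inner distal appendage protein needed for the centriole to dock at the membrane, had 12.5 and 12.2 CPM in shTTC8, against 21.6 and 19.6 CPM in shScb. CEP83 (chr12:94306449-94459988, minus strand) fell by 0.74 (SE 0.10), with no overlap between the groups. CEP290, a scaffold of the transition zone that is mutated in Joubert syndrome, had 24.3 and 25.5 CPM in shTTC8, against 42.7 and 36.6 CPM in shScb. The gene (chr12:88049014-88142216, minus strand) fell by 0.67 (SE 0.09), and the shScb libraries lay farther from each other than the shTTC8 libraries did. CEP290 shares 3.86% of its exonic positions with C12orf29 on the opposite strand, which had 120.1% of its counts and a log2 fold change of -0.79. CEP83 shares 2.56% with PLXNC1, which had 23.6% of its counts and a log2 fold change of -0.43.

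CEP162, which brings transition zone proteins to the centriole, fell by 0.47 (SE 0.13), and CEP78, a centriolar protein linked to cone-rod dystrophy, fell by 0.39 (SE 0.07). CEP162 did not pass without shScb replicate 1 (-0.38) or without shTTC8 replicate 1 (-0.46). CEP41, which is needed for tubulin glutamylation in the cilium, had 35.0 and 37.7 CPM in shTTC8, against 30.1 and 28.6 CPM in shScb. It rose by 0.31 (SE 0.08) and did not pass without shTTC8 replicate 2 (0.26). The remaining 5 did not pass. They include the outer appendage gene CEP164 at -0.12 (SE 0.06) and the appendage gene CEP89 at 0.07 (SE 0.11). CEP19, which recruits transport proteins to the ciliary base, was at -0.48 (SE 0.22) and CEP126 at 0.24 (SE 0.14).

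The 6 genes of the subdistal appendages and of microtubule anchoring held 2 of the 4 members that passed as higher and 0 that passed as lower. By sign alone, 4 of the 6 lay below 0 and 2 above. CEP43, also called FOP, which anchors microtubules together with CEP350, had 27.3 and 29.4 CPM in shTTC8, against 20.4 and 20.3 CPM in shScb. CEP43 (chr6:166999182-167094789, plus strand) rose by 0.48 (SE 0.09), and both shTTC8 libraries were above both shScb libraries. CEP170B, a paralogue of the subdistal appendage protein CEP170, had 11.7 and 9.42 CPM in shTTC8, against 6.21 and 7.82 CPM in shScb. CEP170B rose by 0.59 (SE 0.16), but the libraries of each group lay apart, and it did not pass without shTTC8 replicate 1 (0.42).

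The other 4 of this group did not pass. CEP350 was at -0.11 (SE 0.08), and passed, lower, without shScb replicate 2 (-0.20). CEP20, a relative of CEP43, was at -0.14 (SE 0.09), and CEP128, a subdistal appendage protein, at -0.06 (SE 0.14). CEP170 was at -0.10 (SE 0.06), and reads that also match its pseudogene CEP170P1 may be split between the pair, so its value is uncertain.

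Of the 9 genes of centriole duplication, elongation and conversion, 3 passed as lower and 0 as higher. The median log2 fold change was 0.02, with 4 of the 9 below 0 and 5 above. CEP44, which is needed for a new centriole to become a centrosome, had 322 and 320 CPM in shTTC8, against 502 and 446 CPM in shScb. The gene (ENSG00000164118, chr4:174283677-174333380, plus strand) fell by 0.56 (SE 0.07), with 0.677 of the shScb level left. CEP44 shares 6.51% of its exonic positions with FBXO8 on the opposite strand, which had 35.05% of its counts and a log2 fold change of -0.43. CEP135, a protein of the cartwheel region where the new centriole forms, had 8.86 and 6.86 CPM in shTTC8, against 11.5 and 10.7 CPM in shScb. CEP135 fell by 0.50 (SE 0.14), and without shTTC8 replicate 2, its lowest library, the value was -0.32 and did not pass.

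CEP295, which acts with CEP44 in centriole conversion, fell by 0.32 (SE 0.08) and did not pass without shTTC8 replicate 2 (-0.29). CEP295 shares positions with TAF1D, which had 629.9% of its counts and a log2 fold change of -0.55. CEP152 and CEP63, which together bring the kinase PLK4 to the mother centriole, were at -0.07 (SE 0.08) and 0.02 (SE 0.10) and did not pass. Neither did CEP76, a brake on reduplication, at 0.05 (SE 0.16), nor CEP120, an elongation protein, at 0.06 (SE 0.09). CEP97, which caps centrioles together with CCP110, was at 0.14 (SE 0.10), and passed, higher, without shScb replicate 1 (0.28). CEP85, a binding partner of STIL, was at 0.15 (SE 0.07).

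Pericentriolar matrix and satellite genes comprised 5 members, of which 3 fell and 0 rose. CEP57L1, a paralogue of CEP57, had 10.6 and 12.2 CPM in shTTC8, against 17.5 and 16.2 CPM in shScb, and fell by 0.57 (SE 0.11). CEP57, a matrix protein mutated in mosaic variegated aneuploidy, had 118 and 113 CPM in shTTC8, against 145 and 138 CPM in shScb. CEP57 fell by 0.29 (SE 0.06) and just missed the threshold without shTTC8 replicate 2 (-0.26). CEP192, the scaffold that recruits matrix and mitotic kinases, fell by 0.34 (SE 0.10), and did not pass without shScb replicate 1 (-0.26) or without shTTC8 replicate 2 (-0.32). The satellite genes CEP72, at -0.09 (SE 0.12), and CEP131, at 0.03 (SE 0.09), did not pass.

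The linker that joins the centrioles is represented by CEP68 and CEP250. CEP68 had 48.5 and 46.8 CPM in shTTC8, against 68.7 and 67.2 CPM in shScb, and fell by 0.51 (SE 0.07). Its neighbour RAB1A, which shares 8.78% of CEP68's exonic positions on the opposite strand and had 169% of its counts, was at 0.16. CEP250, the NEK2 substrate to which the linker is attached, was at 0.004 (SE 0.07), and its groups overlapped.

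CEP55, which gathers the abscission machinery at the midbody at the end of cell division, had 40.8 and 41.0 CPM in shTTC8, against 53.7 and 53.2 CPM in shScb. The gene (ENSG00000138180, chr10:93496632-93529092, plus strand) fell by 0.39 (SE 0.07), and the spread within each group was far smaller than the gap between groups.

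The 5 CEP genes with a less settled role held 2 that fell. CEP70, which binds gamma-tubulin, had 12.4 and 13.1 CPM in shTTC8, against 21.5 and 20.0 CPM in shScb, and fell by 0.70 (SE 0.10). CEP95 fell by 0.29 (SE 0.08) and did not pass without shTTC8 replicate 1 (-0.22). Its counts are uncertain, because DDX5 on the opposite strand shares positions with it and had 1974% of its counts, with a log2 fold change of 0.26. CEP85L was at 0.23 (SE 0.11), CEP112 at -0.28 (SE 0.28) and CEP295NL, with 11 and 8 reads in shTTC8 and 11 and 22 in shScb, at -0.39 (SE 0.62). None of these 3 passed.

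In all, 14 members share exonic positions with a gene that had at least 10% of their counts. Those given above without their partner are CEP63 (with ANAPC13), CEP76 (PSMG2), CEP72 (TPPP), NEK5 (AL139082.1) and CEP295NL (TIMP2, on the same strand). Of these partners, ANAPC13 had 285.8% and PSMG2 573.2% of the member's counts. TPPP had 56.4% of the counts of CEP72, with a log2 fold change of 0.86. TIMP2 was counted far more heavily than CEP295NL. The library kit does not mark strand, so reads in the positions that such a pair shares cannot be told apart, on opposite strands or the same strand. Without these 14, 12 members were lower and 3 higher of 35, beside 16.7% lower and 15.2% higher over all tested genes. Nothing is read from these counts.

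Levels of different genes were compared as CPM per kilobase of exonic sequence. CEP44 stood apart at 45.1 and 44.9 in shTTC8 and 70.4 and 62.6 in shScb. CEP57 followed at 16.6 and 15.9 in shTTC8 and 20.4 and 19.4 in shScb, then CEP55 at 12.5 in both shTTC8 libraries and 16.4 and 16.2 in shScb. NEK9 was the most abundant NEK gene, at 10.7 and 10 in shTTC8 and 13.2 in both shScb libraries. CEP131, CEP20 and CEP170 had overlapping shScb levels, so their order is not settled. NEK6 lay low at 0.454 and 0.487 in shTTC8 and 1.6 and 1.5 in shScb, and NEK7 higher at 3.48 in both shTTC8 libraries and 7.97 and 6.88 in shScb. NEK5 and NEK10 were lowest in shScb. The median level over the 49 genes was 2.88 in shTTC8 and 2.99 in shScb.

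**Figure D3:**
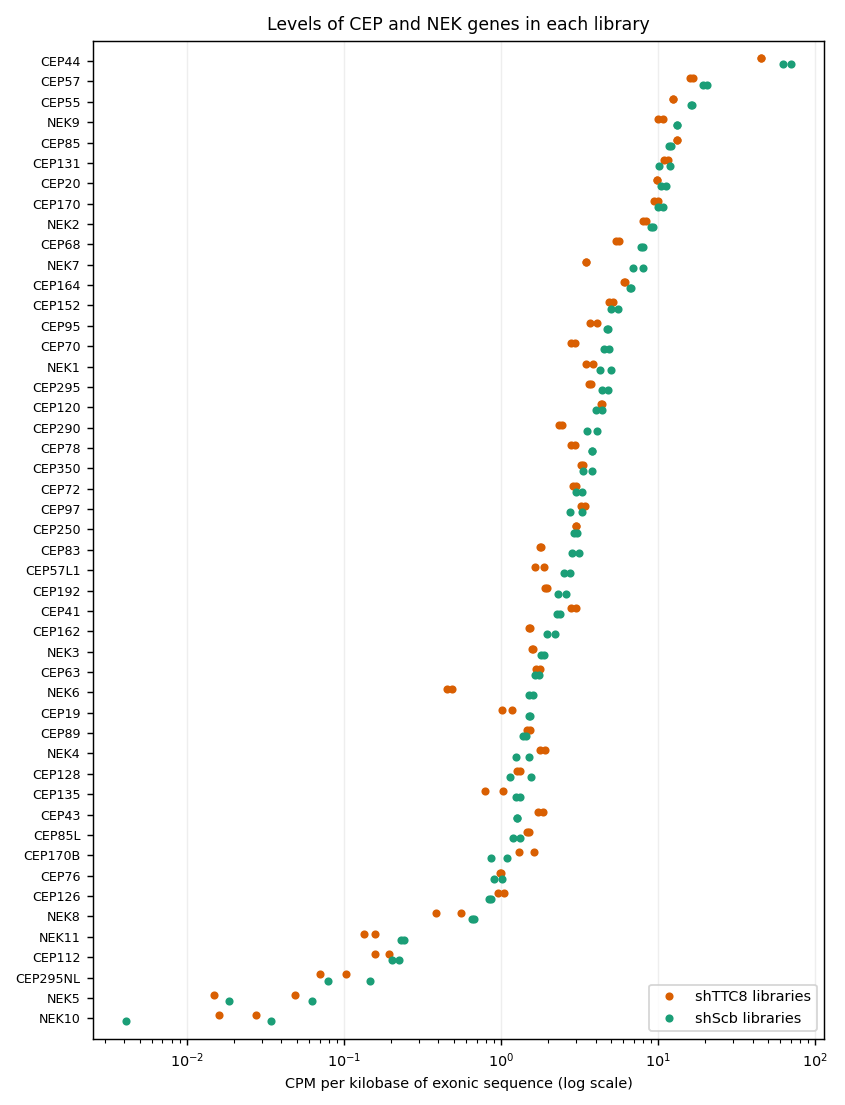
Level of the CEP and NEK genes reported here in each library as CPM per kilobase of exonic sequence, on a log scale, with shTTC8 libraries in orange and shScb libraries in green, in the order of the shScb mean. CEP44 heads the order, with shTTC8 points at 45.1 and 44.9 and shScb points at 70.4 and 62.6, and NEK10 is at its end.

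The members are poorer in GC and longer than most tested genes. Their median GC content was 41.8%, against 48.9% over all tested genes, and their median exonic length 7849 bases, against 4203. All members are protein-coding, and over tested protein-coding genes these medians were 49.0% and 5065 bases. The offset described next used the length of each gene's longest transcript, not this exonic length. With an offset for GC content and length, chosen after seeing the data, 14 members were lower and 7 were higher, against 17.1% of all tested genes in each direction, and the median log2 fold change was -0.15, against 0.01 over all tested genes. CEP135, CEP162, CEP192, CEP295 and NEK1 then no longer passed. CEP164 then passed as lower, at -0.15, and CEP126, CEP85L and CEP97 passed as higher, at 0.40, 0.40 and 0.33. NEK6 was at -1.76, NEK7 at -0.94, CEP83 at -0.61 and CEP290 at -0.48 under the offset, and these 4 still passed.

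**Figure D4:**
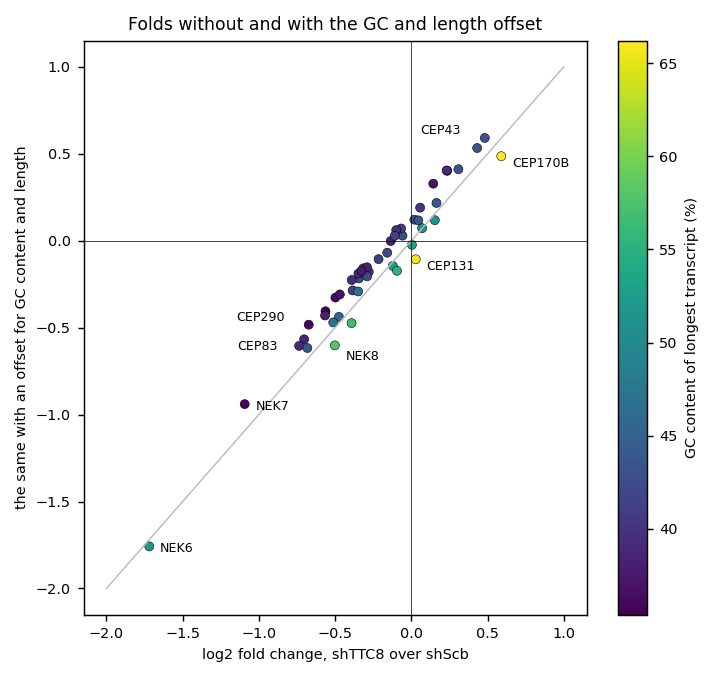
Log2 fold change of the CEP and NEK genes reported here, shTTC8 over shScb, without (horizontal axis) and with (vertical axis) an offset for GC content and length, coloured by the GC content of the longest transcript; the grey line marks equal values. Most dark points, of low GC content, lie above the line, and NEK6 is at -1.72 without the offset and -1.76 with it.

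Other genes of the same structures were read from lists beside the members. The lists were chosen with earlier results of these data known, so their counts are a description and nothing is read from them. Of all tested genes, 16.7% were lower and 15.2% higher. Of 21 further pericentriolar matrix and gamma-tubulin genes, 8 were lower and 2 higher, with a median log2 fold change of -0.17. The spindle pole gene KIZ had 41.0 and 41.7 CPM in shTTC8, against 57.3 and 62.1 CPM in shScb, and fell by 0.53 (SE 0.08). HAUS4 and HAUS6, subunits of the augmin complex that branches spindle microtubules, fell by 0.66 (SE 0.08) and 0.54 (SE 0.07). The 2 that rose, named after their values were seen, were TUBG1, the gamma-tubulin gene, at 0.32 and its partner TUBGCP2 at 0.26. Without shTTC8 replicate 1, 0 of this list rose, and without shTTC8 replicate 2, 1 did.

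The shares over all tested genes were 16.7% lower and 15.2% higher. Of 19 centriole duplication and wall genes, 8 were lower and 0 higher, with a median of -0.12. The number higher was 3 with the GC and length offset, and 1 with library size alone or without shScb replicate 1. POC1B, a centriole wall protein, had 11.8 and 11.7 CPM in shTTC8, against 35.9 and 29.8 CPM in shScb, and fell by 1.48 (SE 0.11). The centriolar satellite gene CCDC14 fell by 0.67 (SE 0.07), and TUBE1, the epsilon-tubulin gene of triplet microtubules, by 0.65 (SE 0.08). Of 15 appendage and linker genes, 6 were lower and 1 higher, with a median of -0.23, and 3 were lower without shTTC8 replicate 2. The subdistal appendage gene NIN fell by 0.77 (SE 0.08), CNTLN by 0.42 (SE 0.09) and CNTRL by 0.35 (SE 0.08). The distal appendage gene FBF1, named after its value was seen, was the 1 that rose, at 0.45 (SE 0.15), and it did not pass with DESeq2, with no low-count filter, with a non-robust fit, with the GC and length offset, without shScb replicate 1 or without shTTC8 replicate 2.

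Of all tested genes, 16.7% were lower and 15.2% higher. Of 21 transition zone and inversin compartment genes, 2 (9.52%) were lower and 0 higher, with a median of -0.08. TMEM237, a membrane protein of the transition zone, was among them, at 50.3 and 51.5 CPM in shTTC8, against 59.6 and 58.4 CPM in shScb (log2 fold change -0.22, SE 0.07). The lower count was 5 without shScb replicate 2, and 1 without either shTTC8 library, with library size alone or with the GC and length offset. The higher count was 2 without shScb replicate 1, and 1 without shTTC8 replicate 2, with library size alone, with the filter of 1 CPM in 2 libraries, with the replicate block or with the offset. No test compared this list with the others.

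Of 35 G2/M and mitotic genes, 21 were lower, 0 higher and 14 did not pass, while 16.7% of all tested genes were lower and 15.2% higher. This list too was chosen with earlier results of these data known, so its count is a description. The median log2 fold change was -0.28, against 0.004 over all tested genes, with 32 of the list below 0 and 3 above. The 14 include, named after their values were seen, CCNB1 at -0.02, PLK1 at 0.003, AURKA at -0.05, CDC20 at 0.05 and MYBL2 at 0.11. The genes named next are those of smallest p. The mitotic kinase gene CDK1 had 86.3 and 89.7 CPM in shTTC8, against 149 and 138 CPM in shScb, and fell by 0.71 (SE 0.06). CENPE, a kinetochore motor, fell by 0.72 (SE 0.07) and ANLN, a scaffold of the cleavage furrow, by 0.63 (SE 0.07). CEP55 and NEK2 are themselves expressed mainly in dividing cells. The part of a change in the share of dividing cells in the members' values was not tested.

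Among 7 abscission partners of CEP55, 3 were lower and 2 higher, beside 16.7% lower and 15.2% higher over all tested genes. The median log2 fold change of the list was 0.12, with 3 genes below 0 and 4 above. CIT, a kinase of the midbody, fell by 0.73 (SE 0.07) and RACGAP1, a subunit of centralspindlin, by 0.28 (SE 0.06). PDCD6IP, also called ALIX, which binds CEP55 directly, fell by 0.27 (SE 0.06). VPS4A, the ATPase that takes ESCRT filaments apart, rose to 235 and 224 CPM in shTTC8, against 163 and 173 CPM in shScb, a log2 fold change of 0.45 (SE 0.06). The ESCRT subunit gene CHMP2A rose by 0.29 (SE 0.07), and PDCD6IP and CHMP2A were named after their values were seen. Without shTTC8 replicate 1, 1 gene of this list rose.

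Over the 13 alternative fits, 11 members were lower in every one: NEK6, NEK7, NEK9, CEP44, CEP55, CEP57L1, CEP68, CEP70, CEP78, CEP83 and CEP290. CEP43 was the 1 member higher in every one. The share of all tested genes called in every fit was not computed, so nothing is read from these counts. Without shTTC8 replicate 2, 13 members were lower and 2 higher, and the shares of all tested genes were then 11.7% lower and 10.2% higher.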

How the data were processed

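RNA was sequenced from 4 libraries of SK-N-BE(2) cells, 2 shTTC8 and 2 shScb, grouped by title. Per the labels' protocols, TRIzol was used for total RNA and the TruSeq RNA kit, which does not mark strand, for the libraries. HISAT2 2.2.0 and hg38 were used, per the submitters' processing notes. Not given in the sources used here are the counter, its strand setting and the annotation. The values, as deposited by the authors, are raw counts for each Ensembl gene ID, not normalized.

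A table of gene names gave the symbols of 40995 IDs and GENCODE 29 those of a further 15596, while 7661 stayed unnamed. Positions, exons and GC content were those of GENCODE 29 (GRCh38), and promoters those of RefSeq (GRCh38.p14).

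Counts were tested in R 4.3.3 with edgeR 4.0.16: filterByExpr defaults (19610 genes kept), TMM scaling and the robust quasi-likelihood F test, two-sided, with p-values adjusted by Benjamini-Hochberg over every tested gene and a threshold of 0.05. Standard errors are the fold change over the square root of F. The biological coefficient of variation was 10.5%. The fit was tested on simulated data. Chi-square per degree of freedom of 4.99 in shTTC8 and 8.59 in shScb showed that no pair of replicates was 1 library counted again.

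Members and lists were chosen with earlier results of these data known. Named by rule were all NEK genes, CEP genes past the test with an absolute log2 fold change of at least 0.5, the 3 most abundant CEP genes and up to 3 genes of each list by smallest p; other CEP genes stand by role. Some genes that the rule covers are not reported here. The alternatives tried were DESeq2 1.42.0, limma-voom (limma 3.58.1), a non-robust fit, library size alone or RLE for scaling, no filter or a filter of 1 CPM in 2 libraries, each library left out in turn, a block for the replicate number, an adjusted p under 0.01, leaving out CEP57L1 or members with overlapping genes, and a GC and length offset (lowess span 0.3) added after seeing the data.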

Additional observations from a re-analysis of the deposited data

How the results depend on the processing

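The TTC8 value kept its direction and passed in all alternatives run. With every library kept, the number of members lower ranged from 12 to 18, so within 1.5 times of 18. The 12 were of the 35 members left without overlapping genes. The share of all tested genes lower ran from 8.53% with DESeq2 to 21.5% with the filter of 1 CPM in 2 libraries. The number higher was 4, against 7 with the GC and length offset (17.1% of all tested genes), 2 at an adjusted p under 0.01 (9.78%), and 2 to 5 when single libraries were left out, where 2 was the value without shTTC8 replicate 2 (10.2%). With the replicate number as a block, 18 members were lower and 4 higher. Over genes, deviations of same-numbered libraries correlated at 0.0317. The labels do not say whether the numbers pair the samples, and with 2 libraries a group this value cannot exclude it.

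The sign turned only for members that did not pass. With the GC and length offset the log2 fold change was 0.029 for CEP128, -0.107 for CEP131, 0.07 for CEP152, 0.061 for CEP170, -0.024 for CEP250 and 0.028 for CEP350. CEP250 was at -0.022 and CEP63 at -0.006 with no low-count filter, and CEP250 at -0.009 with DESeq2. When single libraries were left out, the log2 fold change ran between -0.008 and 0.124 for CEP120, -0.263 and 0.175 for CEP128, -0.091 and 0.157 for CEP131, -0.141 and 0.007 for CEP152, -0.03 and 0.036 for CEP250, -0.764 and 0.125 for CEP295NL, -0.023 and 0.064 for CEP63, -0.042 and 0.135 for CEP76, -0.647 and 2.332 for NEK10, and -1.419 and 0.771 for NEK5. The cause was not tested. Library size alone moved the median of all genes to 0.045, and 5 members were then higher, with CEP85 added. With 2 libraries a group, small changes of low genes were not detectable at this depth, and small changes of well-counted genes could also be missed.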

Other observations

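C3orf14, which RefSeq lists as CEP15, had 30.8 and 33.4 CPM in shTTC8, against 22.4 and 24.5 CPM in shScb, and rose by 0.45 on the log2 scale (SE 0.09). CEP83-DT, the divergent transcript beside CEP83, had 1.73 and 1.79 CPM in shTTC8, against 0.95 and 1.53 CPM in shScb, and its log2 fold change of 0.50 (SE 0.31) did not pass. The pseudogene CEP170P1 was at 5.61 and 5.80 CPM in shTTC8 and 7.40 and 5.34 CPM in shScb, a log2 fold change of -0.16 (SE 0.18) that did not pass.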
